A study of Drosophila melanogaster with 31 samples.

Results

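The proteasome subunit genes were followed in ovaries of Drosophila melanogaster by RNA-seq of poly(A) RNA. Members were the rows of the deposited table whose symbol starts with Rpn, Rpt, Prosalpha or Prosbeta and a digit, leaving out the gene copies Rpt3R and Rpt6R. This gave 32 of 9251 genes. Of these, 13 encode the 20S core particle (Prosalpha2 to Prosalpha7 and Prosbeta1 to Prosbeta7) and 18 the 19S cap (Rpt1 to Rpt6 and 12 Rpn genes). The remaining one, Rpn13R, is a copy of Rpn13 that stayed between 0 and 1.12 TPM (a transcript level scaled by length and by the library's total) in the 31 libraries and is left out of the counts over 31 subunits. Prosalpha1 was not analysed here. The small lid subunit gene Sem1 falls outside this rule of symbols and is counted below with the assembly and activator genes.

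The proteasome is the protease of the cytoplasm and nucleus that degrades proteins tagged with ubiquitin. Its core is a barrel of alpha and beta rings with the protease sites inside, carried by Prosbeta1, Prosbeta2 and Prosbeta5. The cap binds tagged proteins, removes the ubiquitin and unfolds them with a ring of Rpt ATPases, which sits with Rpn1, Rpn2, Rpn10 and Rpn13 in the base, while the other Rpn proteins form the lid. In ovaries, proteasomes are present in germ cells and in the somatic follicle and muscle sheath cells.

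All samples were ovaries, and all groups had 2 libraries unless stated otherwise. Adult wild type (dissected 1 to 3 days after eclosion) and young wild type (0 to 3 hours after eclosion) carried the transgene UAS-Dcr-2.D and the germline driver GAL4-nos.NGT in a white mutant background, with no RNAi construct. The tst RNAi ovaries were UAS-Dcr2;nosGAL4>tst RNAi, so the knockdown is driven in germ cells. The tst mutant was tstMB10212 over the chromosomal deficiency Df(3R)Exel9013. The heterozygotes were pelo1/CyO and hfp9/TM2, both over balancer chromosomes, and the mutants were pelo1/pelo1 and hfp9/hfp9. Polysome libraries were paired with input libraries of the same preparation for control, pelo1/pelo1 and tst RNAi ovaries. Control preparation 1 was the driver line and control preparation 2 was pelo1/CyO, so the control group mixes 2 genotypes. Single libraries came from nosGAL4>bam RNAi ovaries (input and polysome) and from bam{delta}86 mutant ovaries. All of these except young wild type were dissected 1 to 3 days after eclosion. The question was how RNA degradation takes part in the change from germ cell to maternal transcripts, and tst, pelo and hfp were the genes disturbed. The nos driver is a germline driver, whereas the mutant alleles are carried by all cells of the ovary.

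In each library 7233 to 8670 genes had at least 1 TPM. The depth of sequencing cannot be read from TPM and is unknown. The level of tst was 35.3 and 39.6 TPM in the adult libraries, 6.34 and 8.62 TPM in those of the mutant (-2.19, adjusted p = 0.0522 by limma, or 0.000538 when blocked on replicate number) and 6.77 and 11.7 TPM in those of the knockdown (-1.95, adjusted p = 0.168, or 0.00198 with the block). Markers of the cell types differed between groups. The summed level of 5 eggshell genes ranged from 22100 to 32000 TPM in adult wild type, 140 to 146 TPM in young wild type and 4270 to 4860 TPM in the tst mutant. That of 5 muscle sheath genes ranged from 233 to 341, 3840 to 5240 and 1040 to 1800 TPM in the same order, and that of 5 germ cell and oocyte genes from 2150 to 2730, 1550 to 2870 and 714 to 1770 TPM. No gene of these lists was at 0 in all libraries of a group. In tst RNAi the muscle sheath sum was 2040 to 2070 TPM and the eggshell sum 15400 to 21000 TPM. The part of this makeup in the results was not tested. In bulk ovaries, fewer cells of a type and less RNA per cell cannot be told apart. Nothing in the labels says that replicates were separate animals, so p values measure the spread between these samples.

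In the 16 total mRNA libraries the 31 subunit mRNAs together made up between 0.851% and 1.5% of all TPM, with a median of 1.17%. The median subunit stood at 229 to 507 TPM, against a median gene at 15.6 to 43.3 TPM over all 31 libraries. Core mRNAs were more abundant than cap mRNAs in every library: the median TPM of the 13 core genes was 1.21 to 2.12 times that of the 18 cap genes in total mRNA. The order of the 31 genes was much the same throughout, with a Spearman correlation of 0.696 to 0.95 across the 31 genes between the adult wild type mean and each of the 14 other total mRNA libraries, given as a description.

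Prosalpha2, in the outer ring of the core, had the highest median level, at 571 TPM over the 16 libraries (lowest 445 TPM in young wild type, highest 752 TPM in the tst mutant). The protease subunit gene Prosbeta5, active after large hydrophobic residues, had a median of 501 TPM (323 to 697 TPM). The other protease subunit genes, Prosbeta2 (trypsin-like activity) and Prosbeta1 (caspase-like activity), had medians of 476 TPM (373 to 701 TPM) and 367 TPM (298 to 526 TPM). All of the 8 highest medians, from Prosalpha2 down to Prosalpha3 at 440 TPM, belonged to core genes.

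Among cap genes the lid genes Rpn5 and Rpn11 were highest, while other lid genes such as Rpn3, with a median of 252 TPM, were among the lowest. Rpn5 had a median of 436 TPM (249 to 573 TPM), and Rpn11, whose product cuts ubiquitin chains off substrates, 427 TPM (297 to 507 TPM). In the ATPase ring, Rpt1 was highest with a median of 378 TPM (229 to 528 TPM) and Rpt3 lowest with 235 TPM (134 to 407 TPM). The ubiquitin receptor gene Rpn13 had the lowest median of all, 209 TPM (161 to 257 TPM), and also the narrowest range, 1.6-fold. The widest range, 3.95-fold, was that of Rpn2, a scaffold of the base, from 88.8 TPM in hfp mutant 1 to 351 TPM in adult wild type 1. Rpn1, the other large scaffold of the base, shared its low libraries with Rpn2: in replicate 1 of pelo heterozygote, pelo mutant, hfp heterozygote and hfp mutant Rpn1 stood at 167, 139, 242 and 152 TPM and Rpn2 at 168, 120, 169 and 88.8 TPM. In replicate 2 of the same groups Rpn1 stood at 314, 290, 322 and 317 TPM and Rpn2 at 304, 253, 321 and 301 TPM, so for both genes every replicate 1 was lower than every replicate 2, whatever the genotype.

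**Figure D1:**
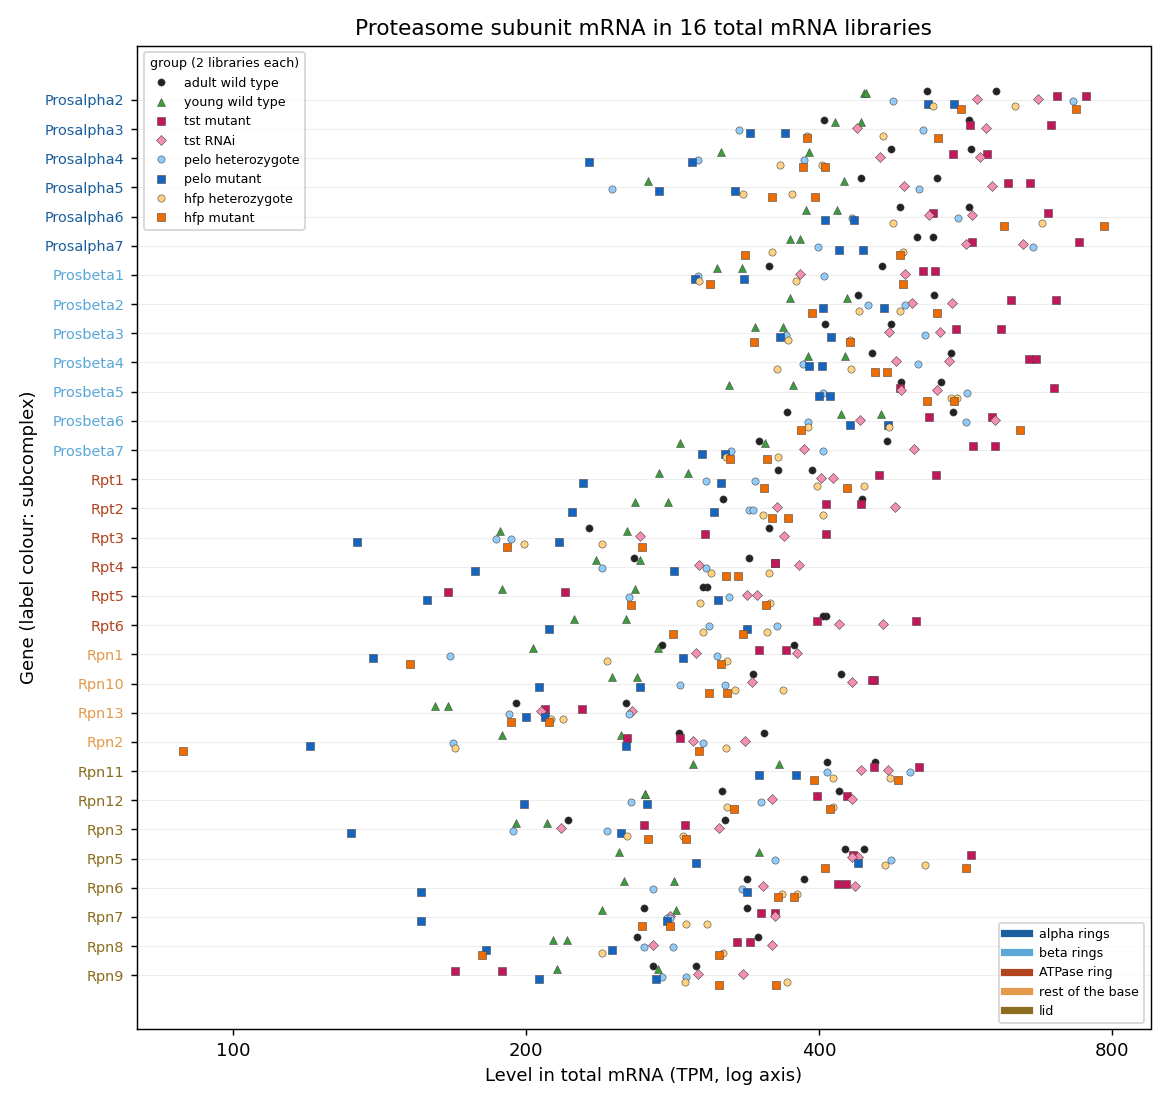
Level of each of the 31 subunit mRNAs (rows, coloured by subcomplex) in TPM on a log axis, with 1 symbol per total mRNA library and 2 libraries per group. The core genes in the upper rows lie further right than the cap genes, the tst mutant squares of Rpn9 lie furthest left in their row, and hfp mutant 1 gives the lowest point of all at 88.8 TPM in the row of Rpn2.

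Young ovaries had lower levels of the subunit mRNAs. Their sum was 0.929% and 0.95% of TPM in the young libraries against 1.12% and 1.35% in the adult ones, and all 31 log2 fold changes were negative, with a median of -0.41 against -0.05 over all 8864 tested genes. Both young libraries were below both adult libraries for 24 of the 31 genes, where 34.6% of all tested genes had that order. In the fit over all 8 groups no subunit passed the test (limma, Benjamini-Hochberg adjusted p below 0.05), 3 had an unadjusted p below 0.05, and 11.1% of all tested genes passed (7.93% rose and 3.16% fell).

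Same-numbered libraries of the adult, young, tst mutant and tst RNAi groups deviated together from their group means, so the number was also used as a block in a fit of these 4 groups, chosen after seeing the data. With the block 14 of the 31 subunit genes fell and none rose in young ovaries, while 46.5% of all tested genes passed, with 24.8% lower and 21.7% higher. The 14 were 3 of the 13 core genes and 11 of the 18 cap genes. Of the ATPase ring 5 of 6 fell (Rpt1, Rpt2, Rpt3, Rpt5 and Rpt6), of the rest of the base 3 of 4 (Rpn2, Rpn10 and Rpn13), of the lid 3 of 8 (Rpn5, Rpn8 and Rpn12), of the alpha rings 2 of 6 (Prosalpha4 and Prosalpha5) and of the beta rings 1 of 7 (Prosbeta5).

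Rpt6, an ATPase of the ring, was at 407 and 404 TPM in adult and at 224 and 253 TPM in young wild type, a log2 fold change of -0.77 (SE 0.16, adjusted p = 0.00506 with the block; SE 0.27, adjusted p = 0.0937 without). Its groups lay far apart relative to the spread within each. The ubiquitin receptor gene Rpn10 was at 421 and 342 TPM in adult and at 260 and 245 TPM in young ovaries (-0.59, SE 0.15, adjusted p = 0.0116 with the block). The protease subunit gene Prosbeta5 was at 486 and 534 against 323 and 376 TPM (-0.55, SE 0.15, adjusted p = 0.0187 with the block). For both genes the groups did not overlap. Prosalpha4, of the outer ring, was at 573 and 474 against 391 and 317 TPM (-0.57, SE 0.16, adjusted p = 0.0187 with the block), and the lid gene Rpn5 at 445 and 425 against 249 and 347 TPM (-0.56, adjusted p = 0.0282 with the block), again without overlap. At the other end, Prosbeta6 was at 549 and 371 TPM in adult and at 463 and 421 TPM in young wild type (-0.03), with overlapping groups.

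These changes are shares of the library's transcripts, and their size depends on the scaling. With library medians set equal the median of all genes moved from -0.05 to 0.21 and that of the subunits from -0.41 to -0.12, with 7 of 31 positive. With equal medians and the block together only 1 subunit gene, Rpt6, fell (-0.47, adjusted p = 0.0242).

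Among 25 genes that assemble, activate, feed or regulate the proteasome, STUB1, a ubiquitin ligase that works with chaperones, fell in young ovaries without the block, from 101 and 175 TPM to 41.2 and 60.3 TPM (-1.40, SE 0.40, adjusted p = 0.0436). With the block, where 24.8% of all genes fell, 8 of 16 ubiquitin and delivery genes fell and none rose, among them the polyubiquitin gene Ubi-p5E (-1.48, SE 0.20, adjusted p = 0.000854) and the ubiquitin-conjugating enzyme gene Ubc10 (-0.83, SE 0.16, adjusted p = 0.00396). Of 6 assembly and activator genes 4 fell, including the deubiquitinase gene Usp14 (-0.67, SE 0.15, adjusted p = 0.0081) and the small lid subunit gene Sem1 (-0.86, SE 0.21, adjusted p = 0.00994). The activator gene REG was the exception: it stood at 295 and 337 TPM in adult and at 476 and 576 TPM in young wild type and rose (0.73, SE 0.14, adjusted p = 0.00331 with the block). None of the 3 transcription factor genes (cnc, Keap1 and maf-S; cnc drives proteasome genes under stress) passed with or without the block.

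In the tst mutant the core genes had positive and 4 cap genes negative log2 fold changes against adult wild type, and how many passed depended on the block and the scaling. The gene tst encodes the fly counterpart of Ski2, a helicase that feeds mRNA into the exosome. The log2 fold change was positive for all 13 core genes (median 0.38, range 0.13 to 0.55), and 14 of 18 cap genes did, with a median of 0.17 and a range of -0.68 to 0.38. No subunit passed in the fit over 8 groups, where 4.23% of all tested genes passed (3.55% rose and 0.677% fell) and 2 subunits had an unadjusted p below 0.05. With the block 1 subunit rose and 2 fell, while 32.9% of all genes passed (18.6% rose and 14.2% fell). With equal library medians and the block 12 subunits rose, Rpn9 (-0.52, adjusted p = 0.0214) and Rpt5 (-0.54, adjusted p = 0.0215) fell, and the median of all genes was 0.14. The share of all genes called in that setting is not given here.

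The subunit that rose with the block was Prosbeta7, a beta ring gene at 470 and 347 TPM in adult libraries, and at 607 and 576 TPM in the tst mutant (0.55, SE 0.15, adjusted p = 0.0227; SE 0.25, adjusted p = 0.268 without the block). Prosalpha2 was at 608 and 516 against 702 and 752 TPM (0.38, SE 0.26, adjusted p = 0.537 without the block). Rpn10 was at 421 and 342 against 455 and 453 TPM (0.26, SE 0.23, adjusted p = 0.659 without the block). In these 3 genes both mutant libraries were above the adult ones. Over the 31 subunits this order held for 14 genes, and the reverse order for 2, where 32.3% and 29% of all tested genes had them.

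The 2 subunits that fell were Rpn9, a lid scaffold gene, and Rpt5, an ATPase of the ring. Rpn9 was at 299 and 270 TPM in adult libraries, and at 169 and 189 TPM in the tst mutant, a log2 fold change of -0.67 (SE 0.17, adjusted p = 0.0168 with the block; SE 0.25, adjusted p = 0.157 without). The mutant libraries were the lowest of all 16 total mRNA libraries for this gene, and the next lowest was pelo mutant 1 at 206 TPM. Rpt5 was at 307 and 304 TPM in adult libraries, and at 166 and 219 TPM in the mutant, a change of -0.68 (SE 0.16, adjusted p = 0.0152 with the block; SE 0.33, adjusted p = 0.311 without). Here the mutant libraries lay below both adult ones but not below every other library, since pelo mutant 1 had 158 TPM.

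Neither gene was lower in tst RNAi. Rpn9 was at 334 and 300 TPM there and Rpt5 at 337 and 345 TPM, and both libraries were above both adult ones for each gene. In a contrast added after these values were seen, the tst mutant was lower than tst RNAi by a log2 difference of -0.82 for Rpn9 (adjusted p = 0.0155 with the block, 0.188 without) and of -0.84 for Rpt5 (adjusted p = 0.0147 with the block, 0.376 without). With the block these 2 were the subunits that passed, while 8.05% of all tested genes were higher and 8.44% lower in the mutant. Without it no subunit passed, 2 had an unadjusted p below 0.05, and 0.801% of all genes were higher and 0.226% lower.

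Rpn9 and Rpt5 are neighbours of tst. On chromosome 3R of Release 6 (dm6), Rpn9 lies at 23731375 to 23733462, Rpt5 at 23752876 to 23754623 and tst at 23768399 to 23772859, so that Rpn9 starts 37 kb and Rpt5 15.5 kb before tst. The next gene, Hrd3, part of a ubiquitin ligase of the endoplasmic reticulum, starts at the base where Rpt5 ends and was at 25 and 28.6 TPM in the mutant against 69.8 and 81.3 TPM in adult wild type (-1.46, adjusted p = 0.000984 with the block). How reads at the border of these 2 genes were assigned is not stated. In the stretch from the start of Rpn9 to the end of Nup98-96, -37 to 13.2 kb from the start of tst and delimited after seeing the values, 12 of 13 tested genes, tst included, had negative log2 fold changes in the mutant (median -0.68), and with the block 11 fell and 1, Lsd-1, rose. Over all tested genes 14.2% fell and 18.6% rose with the block. The next tested genes on either side, CG10365 (0.53) and mbc (0.71), were positive, so the count depends on the chosen ends. Without the block none of the 11 passed (adjusted p = 0.0522 for tst and 0.116 for Hrd3) and Lsd-1 alone did (adjusted p = 0.0281). In tst RNAi 4 of the 13 were negative, tst itself among them, and the median was 0.16. Rpt2, a member 161.5 kb beyond tst, was at 443 and 319 TPM in adult and at 442 and 407 TPM in mutant ovaries (0.17).

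Per its label the mutant carries the tst allele over a deficiency of 3R, whose extent is not in the files. Whether it covers Rpn9 and Rpt5 was not tested. Leaving out any one library of the mutant or of adult wild type gave log2 fold changes of -0.75 to -0.59 for Rpn9 and -0.88 to -0.48 for Rpt5.

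**Figure D2:**
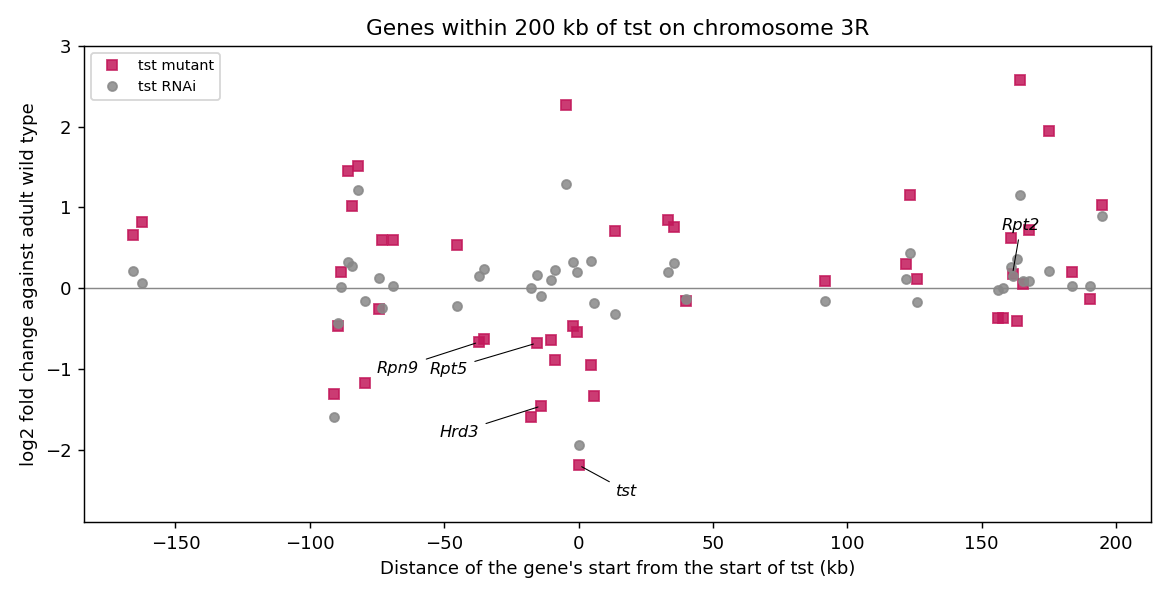
Log2 fold change against adult wild type (vertical axis) of each tested gene within 200 kb of tst, by the distance of its start from the start of tst in kb (horizontal axis); squares are the tst mutant and circles are tst RNAi. The squares from -37 to 5.8 kb lie below 0 except that of Lsd-1, including Rpn9 at -0.67 and Rpt5 at -0.68, while most circles there, other than that of tst, lie near or above 0.

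Among the other genes of the pathway, none passed in the tst mutant without the block. With it Pomp, the chaperone of core assembly, rose (0.53, SE 0.16, adjusted p = 0.0345), and of 16 ubiquitin and delivery genes 2 rose and 4 fell, where 18.6% of all genes rose and 14.2% fell, so the share called was near that of all genes. The polyubiquitin genes went opposite ways: Ubi-p63E rose (0.57, SE 0.17, adjusted p = 0.0318) and Ubi-p5E fell (-1.39, SE 0.20, adjusted p = 0.00203).

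In tst RNAi ovaries the subunit mRNAs were close to adult wild type. Log2 fold changes ran from -0.02 to 0.24 with a median of 0.11, 27 of 31 were positive, and none passed the test with or without the block (no unadjusted p was below 0.05 without it, and 0.936% of all genes rose and 0.079% fell; with it 4.86% rose and 0.738% fell). Prosalpha7, at 524 and 504 TPM in adult and 648 and 567 TPM in tst RNAi, was furthest up (0.24, SE 0.30, adjusted p = 1), and the groups did not overlap. Over the 31 subunits 5 had both RNAi libraries above both adult ones, where 23.4% of all genes had that order. In the other subcomplexes the smallest p values were those of Rpt4 (0.20), Prosbeta3 (0.19), Rpn9 (0.16) and Rpn13 (0.06), with an adjusted p of 1 each. The member median changed sign with 1 library: without tst RNAi 1 it was -0.03 and without adult wild type 2 it was -0.08. The 2 wild type libraries that this comparison uses also serve the tst mutant and young comparisons.

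Set against young wild type, the tst mutant had higher levels of nearly all subunits. Both groups held less eggshell mRNA than adult ovaries, but their markers differed from each other. Eggshell genes summed to 4270 to 4860 TPM in the mutant and 140 to 146 TPM in young wild type. Muscle sheath genes summed to 1040 to 1800 and 3840 to 5240 TPM, and the part of this makeup was not tested. Of the 31 subunits 29 were positive, with a median of 0.66 against 0.05 over all genes, and both mutant libraries were above both young libraries for 29, where 25.3% of all tested genes had that order. Without the block none passed, 17 had an unadjusted p below 0.05, and 4.19% of all genes passed (2.74% rose and 1.44% fell). With the block 21 subunits rose and none fell, while 16.1% of all genes passed (10.6% rose and 5.52% fell). These were 11 of the 13 core genes, all but Prosalpha6 and Prosbeta6, and 10 of the 18 cap genes.

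Prosbeta7 was at 352 and 288 TPM in young wild type and at 607 and 576 TPM in the mutant (0.89, SE 0.15, adjusted p = 0.00448 with the block, 0.0789 without). Prosalpha5 was at 424 and 267 against 625 and 659 TPM (0.93, SE 0.18, adjusted p = 0.0102 with the block). Rpt6 was at 224 and 253 against 398 and 503 TPM (0.91, SE 0.16, adjusted p = 0.00579 with the block, 0.0987 without). Rpn10 was at 260 and 245 against 455 and 453 TPM (0.85, SE 0.15, adjusted p = 0.00574 with the block). In all 4 genes every mutant library was higher than every young one. Rpn9 (-0.44) and Rpt5 (-0.21) were the subunits with negative values, and neither passed. With equal library medians and the block 18 rose and 1 fell, and the share of all genes called in that setting is not given here. Of the 6 assembly and activator genes 5 rose with the block, including Usp14 (0.90, SE 0.15, adjusted p = 0.00516) and Pomp (0.61, SE 0.16, adjusted p = 0.034).

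**Figure D3:**
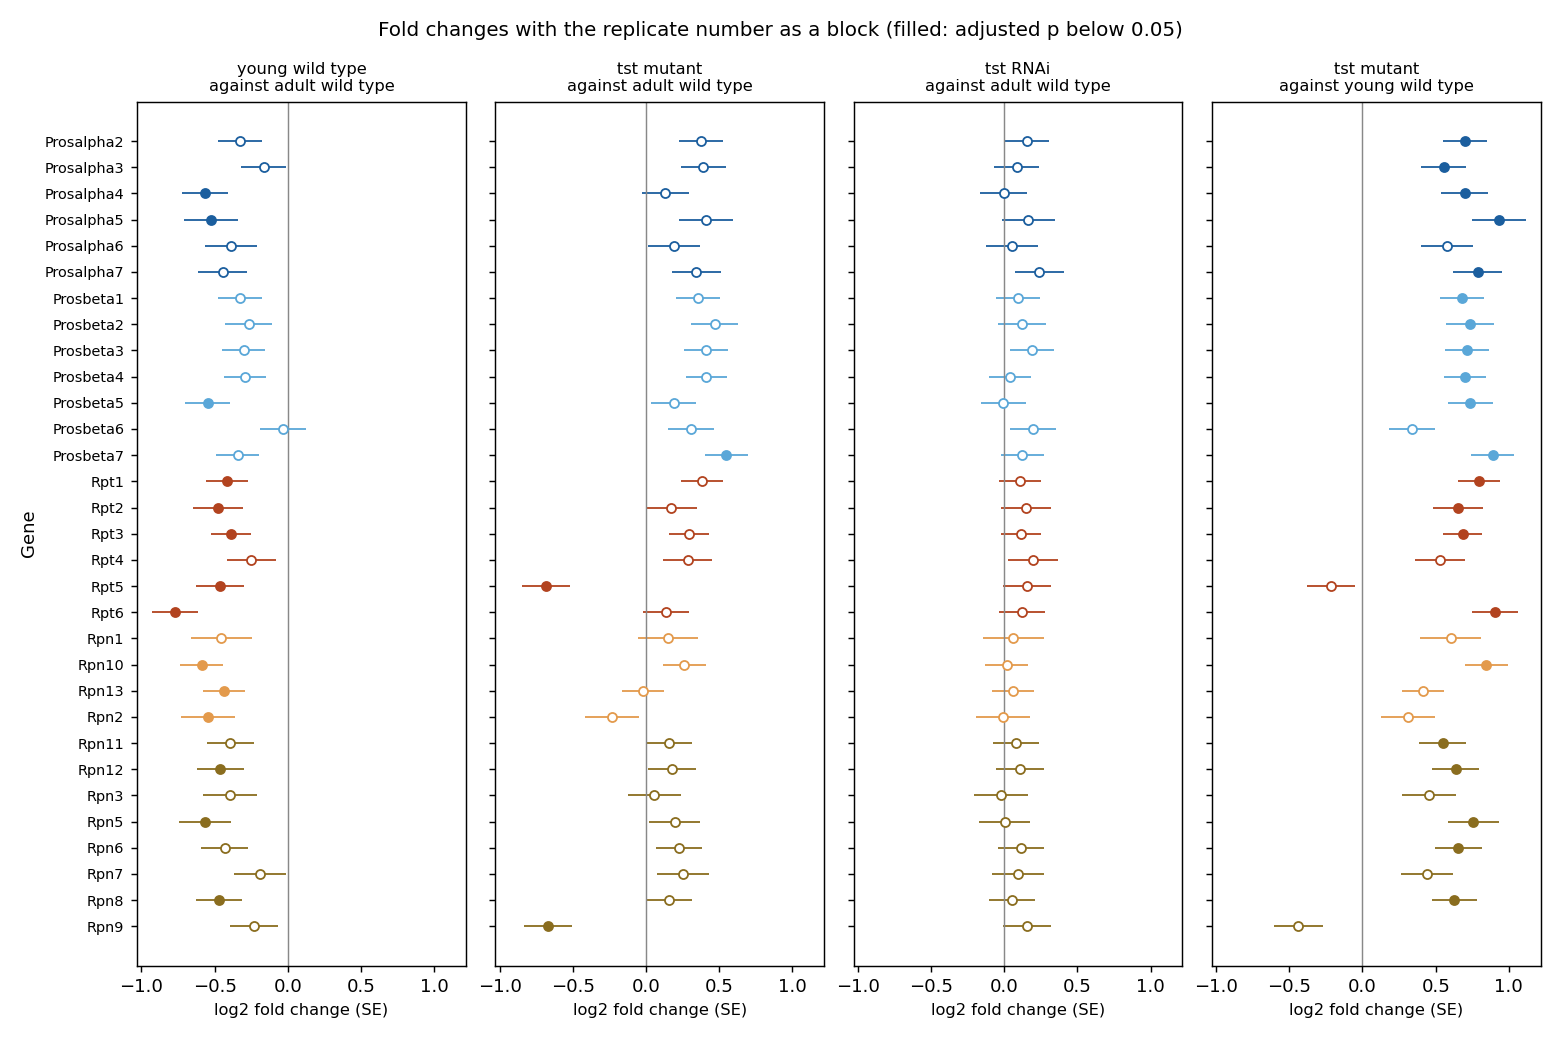
Log2 fold change (horizontal axis, bars 1 SE) of each of the 31 subunit genes in 4 comparisons of total mRNA with 2 libraries per group, from the fit with the replicate number as a block; filled points have an adjusted p below 0.05, and the comparisons share libraries. Young against adult lies left of 0 for all genes, the tst mutant against adult lies right of 0 for the core and left of 0 for Rpn9 and Rpt5, tst RNAi lies near 0, and the tst mutant against young lies right of 0 except for Rpn9 and Rpt5.

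In the pelo mutant all 31 subunit mRNAs had negative log2 fold changes against the heterozygote and none passed. In TPM without further scaling the decrease lay in replicate 1. In replicate 1 all 31 were lower in the mutant than in the heterozygote, with a median log2 difference of -0.48, whereas in replicate 2 17 were lower and 14 higher, with a median of -0.009. The median subunit was at 360 and 229 TPM in heterozygote and mutant 1 and at 323 and 315 TPM in heterozygote and mutant 2. The median of all genes was at 22.7 and 18.4 TPM in heterozygote and mutant 1. It was at 35.7 and 43.3 TPM in heterozygote and mutant 2. It thus fell in replicate 1 and rose in replicate 2, so the contrast between replicates depends on the scaling. Heterozygotes had 45.1 and 90.5 TPM of pelo, a ribosome rescue gene, and mutants 10.8 and 44.6 TPM (-1.49, adjusted p = 0.383). The members' median was -0.25, with a range of -0.42 to -0.06, against -0.01 over all genes. By limma no unadjusted p was below 0.05, and 0.226% of all genes passed (0.214% rose and 0.0113% fell). Both mutant libraries were below both heterozygote libraries for 8 of 31 subunits, where 3.84% of all genes had that order. Rpn7, a lid gene, was furthest down, at 279 and 281 TPM in heterozygous and at 156 and 279 TPM in mutant libraries (-0.42, SE 0.29, adjusted p = 1). Its replicate 2 libraries were nearly equal. Rpn10 was at 320 and 288 against 206 and 262 TPM (-0.39, SE 0.24, adjusted p = 1), and Prosalpha4 at 386 and 300 against 232 and 296 TPM (-0.38, SE 0.25, adjusted p = 1), both without overlap. Rpt2 (-0.37, SE 0.26) and Prosbeta5 (-0.24, SE 0.25) had the smallest p values of the ATPase and beta rings, with an adjusted p of 1. The sum over the 31 subunits was 1.19% and 1.03% of TPM in heterozygotes 1 and 2 and 0.851% and 1.02% in mutants 1 and 2. Eggshell markers summed to 18000 to 18900 TPM in the heterozygote and 5830 to 8960 TPM in the mutant, and muscle sheath markers to 160 to 538 and 1380 to 1550 TPM; their part in the result was not tested.

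In the hfp mutant the subunits showed no common direction. The level of hfp, which encodes a splicing factor, was 25.8 and 48.1 TPM in heterozygotes and 9.29 and 20.8 TPM in mutants (-1.28, adjusted p = 0.449). None of the subunits passed by limma, no unadjusted p was below 0.05, and 0.993% of all genes passed (0.632% rose and 0.361% fell). The median was -0.02, with 8 of 13 core genes and 4 of 18 cap genes positive, and with equal library medians it was 0.21 with 29 of 31 positive, so the direction depends on the scaling. Prosalpha6 was furthest up, at 678 and 476 TPM in the heterozygote and 786 and 619 TPM in the mutant (0.30, SE 0.27, adjusted p = 0.899), with overlapping groups. In the other subcomplexes the smallest p values were those of Prosbeta4 (0.23, SE 0.23), Rpn8 (-0.21, SE 0.31) and Rpt1 (-0.12, SE 0.24), and the signs of Rpn8 and Rpt1 turn with equal library medians. Rpn2 was furthest down, at 169 and 321 against 88.8 and 301 TPM (-0.51, SE 0.54, adjusted p = 0.923), where the replicates of a group differed more than the groups did.

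The inputs of the polysome preparations gave lower subunit levels in both pelo mutant and tst RNAi ovaries than in controls. In pelo mutant inputs 4 of 31 subunits fell and none rose, while 31.5% of all 8426 tested genes passed (16.9% fell and 14.6% rose). The members' median was -0.25 against -0.15 for all genes. In tst RNAi inputs 4 fell and none rose, where 54% of all genes passed (32.3% fell and 21.7% rose), with medians of -0.28 and -0.17. The share of subunits called was thus below that of all genes in both. The comparisons share the 2 control inputs. Muscle sheath markers summed to 237 to 325 TPM in control, 2350 to 3100 TPM in pelo mutant and 3450 to 3600 TPM in tst RNAi inputs. Germ cell and oocyte markers summed to 1750 to 2150, 1050 to 1260 and 595 to 658 TPM, and eggshell markers to 12100 to 20700, 10600 to 11800 and 2020 to 2460 TPM. In the tst RNAi total mRNA libraries the eggshell sum was 15400 to 21000 TPM. There 27 of 31 subunits were positive against adult wild type, whereas 29 of 31 were negative in tst RNAi inputs. The part of these markers was not tested.

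The 4 subunits that fell in pelo mutant inputs came from several subcomplexes. Rpt1 was at 513 and 365 TPM in control and at 294 and 267 TPM in pelo mutant inputs (-0.62, SE 0.18, adjusted p = 0.0357), and in tst RNAi inputs it was at 401 and 398 TPM. Prosbeta5 was at 535 and 552 against 431 and 371 TPM (-0.44, SE 0.14, adjusted p = 0.0467). The lid genes Rpn9 (300 and 302 against 230 and 214 TPM; -0.44, SE 0.13, adjusted p = 0.0367) and Rpn11 (446 and 418 against 331 and 310 TPM; -0.43, SE 0.13, adjusted p = 0.0411) completed the list. In all 4 every pelo mutant input was below every control input. Over the 31 subunits 19 had that order, where 43.6% of all tested genes had it.

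In tst RNAi inputs the subunits that fell were Prosalpha5 (407 and 389 TPM in control, 260 and 292 TPM in tst RNAi; -0.53, SE 0.14, adjusted p = 0.015), Prosalpha6 (447 and 531 against 357 and 357 TPM; -0.45, SE 0.14, adjusted p = 0.0312), Rpn10 (285 and 311 against 215 and 232 TPM; -0.41, SE 0.13, adjusted p = 0.0302) and Rpn12 (278 and 345 against 228 and 218 TPM; -0.48, SE 0.16, adjusted p = 0.0346). Rpn12 is the lid subunit that joins last in yeast. The groups did not overlap in any of them. Over the 31 subunits 22 had both tst RNAi inputs below both controls, where 46.1% of all tested genes had that order. None of these 4 was called in pelo mutant inputs.

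These calls rested on single libraries and on the scaling. Leaving out any 1 library of either comparison changed its number of calls, in fits that leave 1 library in a group. With equal library medians none was called in pelo mutant inputs and 1 rose in tst RNAi inputs, as the median of all genes moved from -0.15 to 0.09 and from -0.17 to 0.25.

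**Figure D4:**
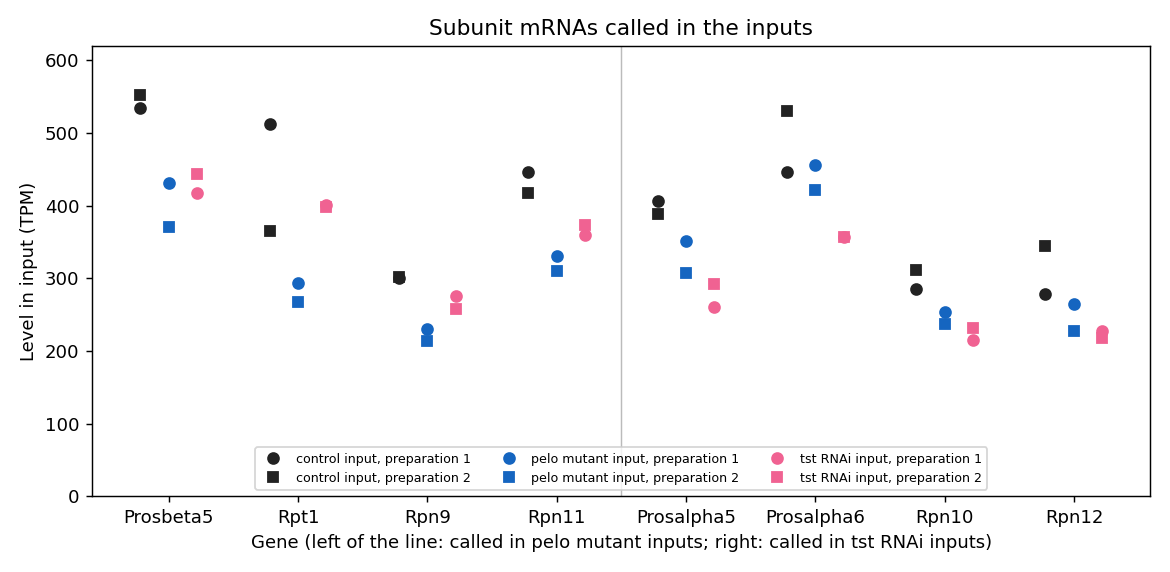
Level in TPM (vertical axis, from 0) of the 8 subunit mRNAs called in the inputs, with 1 symbol per library for control, pelo mutant and tst RNAi preparations 1 and 2. Rpt1, Prosbeta5, Rpn9 and Rpn11 have both pelo mutant inputs below both controls, and Prosalpha5, Prosalpha6, Rpn10 and Rpn12 have both tst RNAi inputs below both controls.

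Some other genes of the pathway were called in the inputs. Of 6 assembly and activator genes, Pomp (-0.50, SE 0.14, adjusted p = 0.036), Sem1 (-1.25, SE 0.32, adjusted p = 0.0251), the deubiquitinase gene Uch-L5 (-0.65, SE 0.13, adjusted p = 0.0122) and Usp14 (-0.40, SE 0.13, adjusted p = 0.0494) fell in pelo mutant inputs. Of 16 ubiquitin and delivery genes 3 fell there and 6 fell in tst RNAi inputs, shares near the 16.9% and 32.3% of all tested genes that fell, with STUB1 in both (-1.01 and -0.97; adjusted p = 0.0122 and 0.00477). In tst RNAi inputs REG rose (0.43, SE 0.14, adjusted p = 0.0317), from 378 and 352 TPM to 472 and 512 TPM, and the transcription factor gene cnc fell from 116 and 73.5 TPM to 48 and 36.7 TPM (-1.12, SE 0.26, adjusted p = 0.00868).

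On polysomes the core and cap mRNAs differed in their medians, with overlap between single genes. The polysome to input ratio, the difference of log2(TPM + 1) within a preparation, is a relative measure, since the TPM of each library sum to the same total. In each of the 7 preparations the median ratio of the 13 core genes was higher than that of the 18 cap genes: by 0.96 and 0.73 in control preparations 1 and 2, by 0.58 and 0.52 in the pelo mutant, by 0.27 and 0.56 in tst RNAi and by 0.51 in bam RNAi, whose polysome library had 18.9 TPM of bam against 3.1 TPM in its input. In control preparation 2 all 13 core ratios were positive, from 0.53 to 1.13, and the cap ratios ran from -1.19 to 0.72. In both pelo mutant preparations (0.15 to 0.84 and 0.68 to 1.25) and in tst RNAi 1 (0.31 to 0.79) all core ratios were positive too, while in control preparation 1 only 2 of the 13 were. Single genes overlapped: in the fit of both control preparations the cap gene Rpn13 had 0.203. The core genes Prosalpha4 and Prosalpha7 had -0.295 and -0.349 there.

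Few genes kept the sign of their ratio throughout. Rpn1 and Rpn2 were the only subunits with a negative ratio in all 7 preparations, from -2.42 to -0.32 for Rpn1 and from -1.87 to -0.26 for Rpn2. Prosbeta3 (0.36 to 1.01) and Prosalpha2 (0.03 to 0.80) were the only ones with a positive ratio in all 7. Across the 31 genes the mean ratios of control, pelo mutant and tst RNAi correlated at a Pearson r of 0.895 to 0.907, given as a description over genes from separate libraries.

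The order also followed gene length. Over the 31 subunits the Spearman correlation of the ratio with the length of the gene from start to end was -0.61 to -0.84 in the 7 preparations, and over all genes it was -0.24 to -0.63. Core genes span 914 to 1369 bases and cap genes 995 to 4500 bases. Only 1 cap gene, Rpn12 with 995 bases, is as short as a core gene, so subcomplex and length cannot be told apart here. Gene length includes introns and is not the length of the mRNA.

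**Figure D5:**
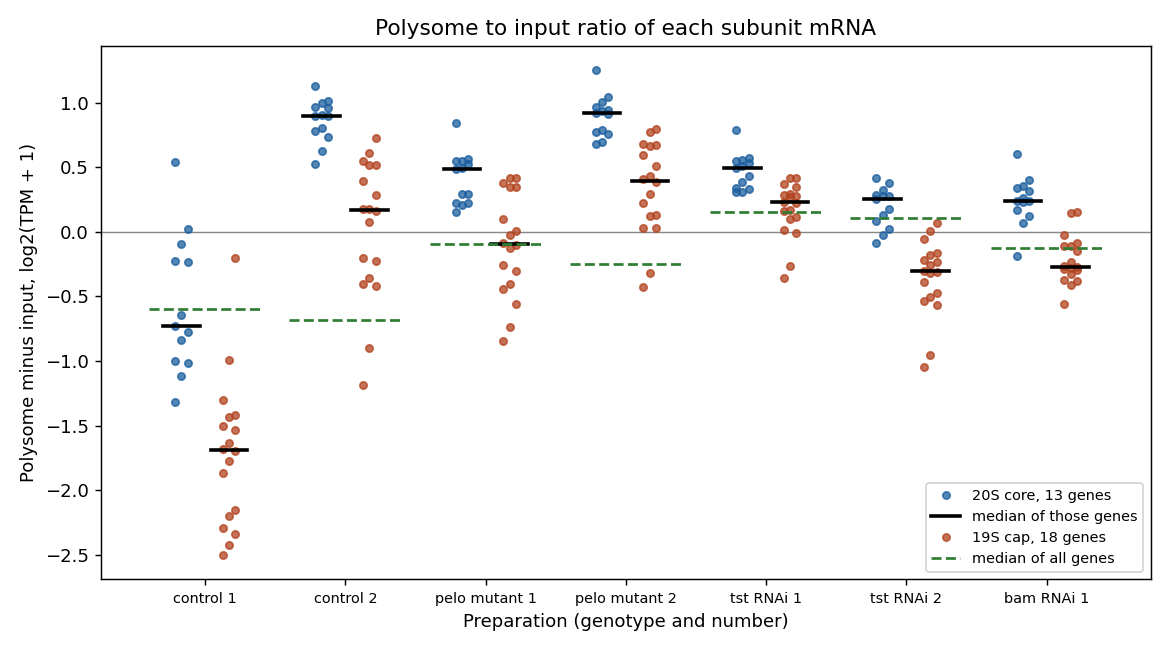
Polysome minus input log2(TPM + 1) of each subunit mRNA (vertical axis) in 7 preparations; blue points are the 13 core genes, red points the 18 cap genes, black bars their medians and dashed green lines the median of all genes. The blue median lies above the red one in every preparation, and control preparation 1 lies lower than control preparation 2 in both sets.

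In control ovaries 1 subunit mRNA rose on polysomes and 7 fell, while 41.7% of all 8572 tested genes passed (3.25% rose and 38.4% fell) and the median of all genes was -0.55. The 7 that fell were 7 of the 18 cap genes and 0 of the 13 core genes. The share of cap genes that fell was thus near the 38.4% of all tested genes, and the 1 riser of 31 was near the 3.25%. Rpn2 was at 192 and 204 TPM in the inputs and at 52 and 89 TPM on polysomes (-1.53, SE 0.25, adjusted p = 0.00259), and Rpn1 was at 159 and 219 against 28.8 and 117 TPM (-1.66, SE 0.34, adjusted p = 0.00515). In both genes each polysome library was below each input.

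The others were the lid genes Rpn5 (-0.86, SE 0.28, adjusted p = 0.0359), Rpn6 (-1.46, SE 0.39, adjusted p = 0.0154) and Rpn8 (-1.27, SE 0.40, adjusted p = 0.0295) and the ATPase genes Rpt3 (-0.99, SE 0.31, adjusted p = 0.0301) and Rpt5 (-1.28, SE 0.36, adjusted p = 0.0201). The riser was the core gene Prosbeta3, at 241 and 433 TPM in the inputs and at 351 and 871 TPM on polysomes (0.77, SE 0.21, adjusted p = 0.0179), with overlapping ranges across preparations but a rise in each.

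The 2 control preparations, of different genotypes, went apart. The median ratio of the 31 subunits was -1.32 in preparation 1 and 0.53 in preparation 2, although the median of all genes was -0.60 and -0.68. The subunits' sum was 0.507% of TPM on polysomes of preparation 1 and 1.67% on those of preparation 2. In preparation 1 the ratio was positive for 2 of 13 core and 0 of 18 cap genes, and in preparation 2 for 13 and 11. With equal library medians 3 rose and none fell in the fit of both preparations. The share of all genes called in that setting is not given here. The higher median of core than of cap genes held in both preparations.

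In pelo mutant ovaries no subunit passed, 8 had an unadjusted p below 0.05, and 5.9% of all genes passed (0.607% rose and 5.3% fell). The median was 0.47 against -0.19 over all genes, all 13 core genes and 12 of 18 cap genes were positive, and Prosbeta6 was highest, at 435 and 356 TPM in the inputs and at 781 and 848 TPM on polysomes (1.05, SE 0.28, adjusted p = 0.0552). Prosalpha2 (0.64, SE 0.22, adjusted p = 0.103), Rpn11 (0.54), Rpt4 (0.47) and Rpn2 (-0.58) had the smallest p values of their subcomplexes. In tst RNAi ovaries none passed, 2 had an unadjusted p below 0.05, and 0% of all genes rose and 0.035% fell. The median was 0.06 against 0.12, and again all 13 core genes were positive, with 10 of 18 cap genes. Prosbeta3, at 274 and 298 TPM in the inputs and 475 and 397 TPM on polysomes, was highest (0.60, SE 0.21, adjusted p = 0.328), and Rpn2 had the smallest p of the cap (-0.61, SE 0.25, adjusted p = 0.379).

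The difference of the ratio between genotypes was tested as an interaction. No subunit passed for the pelo mutant against control (4 with an unadjusted p below 0.05, 0% of all genes called in either direction) or for tst RNAi against control (5 with an unadjusted p below 0.05, 23% of all genes passed, with 22% higher and 0.968% lower). The lid gene Rpn6 had a difference of 1.35 (SE 0.55, adjusted p = 0.374) in the pelo mutant and of 1.27 (SE 0.55, adjusted p = 0.114) in tst RNAi. Rpn2 had 0.94 (SE 0.35, adjusted p = 0.374) and 0.92 (SE 0.35, adjusted p = 0.0806). In the core, Prosalpha4 had 0.84 (SE 0.47) and 0.49 (SE 0.47) and Prosbeta4 0.76 (SE 0.44) and 0.40 (SE 0.44). The members' median was 0.78 against 0.40 over all genes in the pelo mutant and 0.49 against 0.70 in tst RNAi, where with equal library medians it was -0.41 against -0.05. Without control preparation 1 the members' medians were -0.02 in the pelo mutant and -0.39 in tst RNAi.

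Of the 16 ubiquitin and delivery genes 12 fell on control polysomes, where 38.4% of all tested genes fell, such as the ubiquitin-activating enzyme gene Uba1 (-1.64, SE 0.21, adjusted p = 0.00184) and STUB1 (-1.31, SE 0.18, adjusted p = 0.00186). For 8 of the 16 the ratio was higher in tst RNAi than in control, as it was for 22% of all genes, including STUB1 (1.59, SE 0.26, adjusted p = 0.0166) and Ubc2 (1.52, SE 0.28, adjusted p = 0.0169). The transcription factor gene cnc fell on polysomes of control (-1.69, SE 0.24, adjusted p = 0.00197) and of the pelo mutant (-1.04, SE 0.24, adjusted p = 0.0447), and its ratio was higher in tst RNAi than in control by 1.65 (SE 0.34, adjusted p = 0.018).

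Ovaries with bam RNAi, which are filled with undifferentiated germ cells, gave single libraries with no test. No subunit in their input reached a log2 difference of 1 from the mean of the control inputs, while 15.4% of all genes were that much higher and 15.1% lower. The median of the 31 was 0.09 and 21 were positive. The ATPase genes Rpt4 (372 TPM against 164 and 252 TPM; 0.87) and Rpt3 (288 against 179 and 168 TPM; 0.73) were highest and Rpt1 (353 against 513 and 365 TPM; -0.30) was lowest. On bam RNAi polysomes no subunit reached 1 in either direction either (4.33% of all genes higher, 9.77% lower), with positive ratios for 12 of 13 core and 2 of 18 cap genes. This polysome library stood apart from its input in marker genes: bam was at 18.9 TPM against 3.1 TPM in the input, and at 41.2 and 11.8 TPM on control polysomes. Eggshell markers summed to 9680 TPM against 1430 TPM in the input, and muscle sheath markers to 2330 against 5460 TPM. Their part in the ratios was not tested, and the higher median of core than of cap genes was also measured in each of the 6 preparations other than bam RNAi.

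In the bam mutant library, which comes from a separate table and is set beside the others without comparison, Prosalpha2 was at 491, Prosbeta5 at 386, Rpn9 at 375 and Rpt4 at 353 TPM. In the bam RNAi input the same genes were at 552, 509, 381 and 372 TPM. The 2 libraries differed in marker genes. Those of 3 fat body genes summed to 1990 TPM in the bam mutant and 8.38 TPM in the bam RNAi input, and those of the eggshell to 10000 and 1430 TPM.

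The gene copies left out of the members behaved differently. Rpt6R, a copy of Rpt6, rose in the tst mutant, with 0.589 and 0.693 TPM in adult libraries against 75.2 and 62 TPM (5.40, SE 0.51, adjusted p = 0.000612), and had 2.26 and 1.45 TPM in tst RNAi. In bam RNAi it had 14.9 TPM (input), and in the bam mutant 17.3 TPM. Rpt3R, a copy of Rpt3, had 0.8 and 0.747 TPM in adult libraries, rose in young wild type (3.22 and 4.41 TPM; 1.43, SE 0.41, adjusted p = 0.0456), in the tst mutant (16.4 and 22.7 TPM; 3.52, SE 0.41, adjusted p = 0.00135) and in tst RNAi (11.9 and 7.57 TPM; 2.57, SE 0.41, adjusted p = 0.0151), and had 70.8 TPM in bam RNAi (input). In pelo mutant inputs Rpt3R fell, from 9.17 and 5.99 TPM in control inputs to 1.87 and 1.76 TPM (-1.58, SE 0.27, adjusted p = 0.00677). In tst RNAi inputs it was at 7.67 and 6.76 TPM and did not pass against the same controls (-0.04, SE 0.27, adjusted p = 0.913 by limma). The control inputs, of which preparation 1 was the driver line, thus had more Rpt3R than the adult wild type libraries. So did the heterozygotes, with 7 and 5.25 TPM in pelo and 2.89 and 2.15 TPM in hfp. The rises in young wild type and in tst RNAi were measured against the low adult wild type libraries only. Reads that match both a copy and its parent gene may be assigned to either, and how they were counted is not stated. The parent genes Rpt3 and Rpt6, at 134 TPM or more in every total mRNA library, stayed far more abundant than their copies.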

How the data were processed

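Per the labels' protocols, ovary RNA was DNase-treated, enriched for poly(A) RNA and turned into directional libraries, and polysome samples were run on gradients first. Per the submitters' processing notes, HISAT2 2.0.5, featureCounts 1.5.1 and dm6 were used. No annotation, strand setting or TPM formula is given in the sources used here. The authors deposited log2 TPM, per the column headers. Powers of 2 of these values minus 0.5 have equal sums in all columns over the 9251 genes, so the deposited log2 values were taken as log2(TPM + 0.5). They were turned into log2(TPM + 1), and fold changes on that scale understate the change of weakly expressed genes. No counts can be had from these values, so the main test was limma 3.58.1 (R 4.3.3) with a variance trend.

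A gene entered a fit with 1 TPM or more in 2 of its libraries: 8864 in 16 total mRNA libraries, 8426 in 6 inputs and 8572 in 12 input and polysome libraries, the last with the preparation as a block. All 31 subunits passed this filter in each fit, and Rpn13R in the first only. P values were adjusted by Benjamini-Hochberg over all tested genes, with a threshold of 0.05. Single bam libraries were described by a log2 difference of 1, in the same direction against both control inputs. The fits were run on simulated data for the tst mutant against adult wild type and for control polysomes against input only. The simulated noise was independent between libraries, and the planted changes were larger than any fitted subunit change. The fit with the replicate number as a block was not simulated. Figures used Python 3.11.15 with matplotlib 3.10.9.

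Replicate numbers come from the sample titles. Same-numbered libraries deviated from their group means with a correlation of 0.611 to 0.761 among the adult, young, tst mutant and tst RNAi groups (6 pairs of groups) and at 0.171 to 0.716 among the pelo and hfp groups (6 pairs), but at -0.225 to -0.005 among inputs (3 pairs). In the first 4 groups replicate 2 has the strand label reverse and replicate 1 has none, so the block also splits by that label. For pelo and hfp the block changed no call.

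The members, lists, tests and alternatives were chosen with earlier results of these data known. Named members were those past the threshold (3 per subcomplex where over 12 passed), or the one with the smallest p in each subcomplex where none did, with the 3 protease subunits, the gene copies, the target genes and up to 4 pathway genes. Other named members, genes of the tst stretch and values of the low libraries were chosen after their values were seen. Lists of 6 assembly and activator, 16 ubiquitin and delivery and 3 transcription factor genes were complete in the table. Coordinates are from a RefSeq table of Release 6. Alternatives were another pseudocount, other filters, equal library medians, quantile normalization, the replicate block, fits of the compared groups alone and leaving out each replicate.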

Additional observations from a re-analysis of the deposited data

Results flagged for a closer look

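The levels of Rpn9 and Rpt5 differed between tst mutant and tst RNAi ovaries by a test of the difference itself. This held in the fit blocked on replicate number only, where 8.05% of all tested genes were higher and 8.44% lower in the mutant. The tst mutant was lower than tst RNAi by a log2 difference of -0.82 for Rpn9 (adjusted p = 0.0155) and of -0.84 for Rpt5 (adjusted p = 0.0147), with both mutant libraries below both RNAi libraries for each gene. Without the block the adjusted p was 0.188 and 0.376. The contrast and the block were chosen after the data were seen.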

How the results depend on the processing

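Counts of called subunits (rises and falls together) changed with the setting as follows. Young against adult wild type went from 0 to 1 in the fit of the 2 groups alone, 14 with the replicate block in the fit of 4 groups, and 1 with that block and equal library medians. The tst mutant against adult went from 0 to 3 and 14 in the last 2 settings, and against young from 0 to 21 and 19, to 3 with the replicate block over all 8 groups and to 2 with quantile normalization. Pelo mutant inputs went from 4 to 0 with equal medians, with quantile normalization and in the fit of 2 groups, to 1 with the replicate block, and to 0 to 8 without 1 library. The tst RNAi inputs went from 4 falls to 1 rise with equal medians, to 1 with quantile normalization, the replicate block or the fit of 2 groups, and to 0 to 13 without 1 library. The input numbers share only a number, so these block values are not pairings. Control polysomes went from 8 to 3 rises with equal medians, to 4 with quantile normalization, to 4 with no replicate block, and to 14 to 24 without 1 preparation. Pelo mutant polysomes went from 0 to 1 with at least 5 TPM or quantile normalization. The ratio differences went from 0 to between 0 and 27 (pelo mutant) and between 0 and 25 (tst RNAi) without 1 preparation. The bam RNAi input went from 0 to 1 with equal medians and to between 0 and 1 with 1 control input. The cause was not tested. Only for the main fits and the replicate block of 4 groups is the share of all tested genes called given beside the counts. The other counts cannot be read as particular to the subunits. A group left with 1 library was assumed to vary like the others. The replicate blocks of 4 groups and their equal-median form were chosen after seeing the data, and changed no call in tst RNAi against adult, pelo or hfp. Over the named members 590 alternative values kept direction and call, 72 lost and 42 gained a call, and 20 changed sign. With equal medians these were Rpt1 (0.11, or 0.12 with the block) and Rpn8 (0.022, or 0.03 with the block) in hfp, Prosalpha6 (0.004) and Rpn10 (0.036) in tst RNAi inputs, and Prosalpha4 (-0.41) and Prosbeta4 (-0.51) in the tst RNAi ratio difference. With quantile normalization they were Rpn11 (-0.088) on tst RNAi polysomes and Prosbeta4 (-0.019) in that ratio difference. Without 1 library, the ranges were -0.13 to 0.24 for Rpn13 and -0.003 to 0.39 for Rpt4 in tst RNAi, -0.48 to 0.004 for Prosbeta5 in pelo, -0.26 to 0.02 for Rpt1, -0.61 to 0.19 for Rpn8 and -1.38 to 0.37 for Rpn2 in hfp, -0.56 to 0.16 for Rpt3 on tst RNAi polysomes, and -0.33 to 1.32 for Prosalpha4 and -0.36 to 1.15 for Prosbeta4 in the ratio difference. Groups of 2 libraries and an unknown depth limit all of these.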
